A study of Mus musculus with 2 samples.

Results

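The genes described here are 9 members of the tight junction machinery among the 35275 gene identifiers of the count table: F11r, Jam2, Jam3, Tjp1, Cgn, Cgnl1, Ocln, Cxadr and Marveld1. They were picked from the measured counts, because F11r stood among the genes most elevated in the mutant library, so their ratios below are a description and not a test. Polyadenylated RNA was sequenced from marrow mesenchymal stem/progenitor cells (MSPC) of C57BL/6 mice. The sort kept cells with CD140 and Sca-1 on their surface and removed those with CD45, Ter-119 or CD31. The control library came from Ptpn11+/+ mice and the mutant library from Ptpn11E76K/+ mice, and both carried the Nestin-Cre transgene, in which the nestin promoter drives the recombinase. Ptpn11 encodes the phosphatase SHP2, and the mutant allele makes it more active. There was 1 library per genotype, with ages, sexes and any pooling of animals not given in the sources used here, so no difference below has a replicate check.

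Tight junctions seal neighbouring epithelial or endothelial cells at their apical border. Their membrane proteins are the claudins, occludin, the MARVEL proteins and the immunoglobulin-like JAM and CAR proteins. On the inner face the scaffold ZO-1 and its relatives, with cingulin and paracingulin, tie these proteins to actin and to polarity complexes. Mesenchymal cells do not form continuous tight junctions, but several of the same proteins occur in them at other contacts, and JAM proteins are also found on leukocytes and platelets.

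Promoter sequences are shown first for 3 members, chosen by their counts. F11r and Cgn were low in the control and higher in the mutant library, and Cgnl1, the relative of Cgn, was abundant in both. They are the 250 bases before the transcription start in RefSeq on GRCm38.p6, which is not the build named for the counts, and 6 of the 9 members had such an entry. Capitals mark matches, on either strand, to the Snail and ZEB E-box (CACCTG), the AP-1 site (TGANTCA), the GC box (GGGCGG), the TATA box (TATAAA) and the Grainyhead-like site (AACNGGTT).
F11r, plus strand, chr1:171437311-171437560: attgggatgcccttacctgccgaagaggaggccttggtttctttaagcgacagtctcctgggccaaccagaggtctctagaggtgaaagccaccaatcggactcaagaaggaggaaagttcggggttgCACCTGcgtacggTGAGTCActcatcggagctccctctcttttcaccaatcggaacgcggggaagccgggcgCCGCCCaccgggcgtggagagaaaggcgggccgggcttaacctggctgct
Cgn, minus strand, chr3:94786483-94786732: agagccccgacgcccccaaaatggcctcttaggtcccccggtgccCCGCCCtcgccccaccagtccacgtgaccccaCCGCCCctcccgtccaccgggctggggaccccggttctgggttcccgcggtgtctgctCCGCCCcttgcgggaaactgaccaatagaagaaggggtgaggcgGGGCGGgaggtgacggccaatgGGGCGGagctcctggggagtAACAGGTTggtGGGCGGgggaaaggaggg
Cgnl1, minus strand, chr9:71771603-71771852: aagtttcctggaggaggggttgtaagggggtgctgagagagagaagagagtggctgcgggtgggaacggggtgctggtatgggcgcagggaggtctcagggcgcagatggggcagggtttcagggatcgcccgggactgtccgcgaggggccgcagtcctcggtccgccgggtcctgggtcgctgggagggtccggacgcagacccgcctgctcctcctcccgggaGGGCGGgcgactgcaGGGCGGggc

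The F11r window held 1 E-box match that began 122 bases before the start, 1 AP-1 match at 109 bases and 1 GC box at 50 bases. The Cgn window held 6 GC boxes and 1 Grainyhead-like match at 29 bases, with no E-box or AP-1 match. In the Cgnl1 window there were 2 GC boxes and no other match. Among 32851 windows of this length, 17.2% held the E-box, 6.75% the AP-1 site, 32.7% the GC box, 12.4% the TATA box and 1.79% the Grainyhead-like site. GC content was 60.0% for F11r, 70.4% for Cgn and 70.8% for Cgnl1, against a median of 52.4% over all windows. Among the member windows not shown, an Ocln window held 2 E-box matches, and that gene had 0 counts in both libraries. The other Ocln window and those of Tjp1 and Marveld1 held no E-box or AP-1 match. These matches describe letters in the sequence, and no binding was measured.

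F11r encodes JAM-A, the adhesion protein that marks the tight junction early in its assembly. The control library held 4 F11r counts and the mutant library 675. In CPM, meaning counts scaled to 1e6 of the adjusted library total, this was 0.173 (95% Poisson interval 0.0471 to 0.443) against 38.8 (35.95 to 41.9). The libraries stood far apart, with F11r near the detection limit in the control and well detected in the mutant. The mutant level was 224-fold higher, with an exact Clopper-Pearson interval of 87.3 to 826 from the split of the counts. These intervals cover counting error only. Per kilobase of its longest annotated transcript, F11r stood above 0.864% of the 13074 measured genes with a known length in the control library, and above 68.7% of them in the mutant. No other annotated gene model overlapped its exons, and 1.42% of its 50-base stretches occurred in transcripts of other genes.

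The other JAM genes took different courses. Jam2, whose product JAM-B pairs with JAM-C between cells, had 436 and 533 counts in control and mutant, or 18.85 and 30.65 CPM. That was 1.63-fold higher in the mutant library (1.43 to 1.85). Jam3, which encodes JAM-C, had 1223 and 440 counts, or 52.9 and 25.3 CPM, which was 2.09-fold lower in the mutant (1.87 to 2.34). A gene was called here when it had at least 20 counts over both libraries and its whole interval lay beyond 2-fold. By this rule Jam2 was not called, and Jam3 just missed the call. Jam3 was called lower, at a ratio of 0.446, when plain library totals were used, at 0.438 when totals left out the 100 most abundant genes, and at 0.441 once the trends with length and GC were taken out. Its exons share 36.2% of their bases with an antisense gene model, Gm48796, whose reads cannot be told apart without a strand setting.

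Set against one another per kilobase of transcript, the JAM genes summed to 31.6 CPM per kilobase in the control library against 35.5 in the mutant. With the median transcript length the sums were 73.3 and 105.7, and with merged exons 19.7 and 27.6. Their make-up differed. F11r accounted for 0.217% of the JAM level in the control (0.0592 to 0.556) and 43.5% in the mutant (41.0 to 45.9). Jam3 made up 86.1% of that level in the control and 36.7% in the mutant, and Jam2 13.65% and 19.8%. The share of F11r in the mutant was 54.2% with the median transcript length of each gene and 52.9% with merged exons, so its size depends on the length used.

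Cxadr encodes CAR, the coxsackievirus and adenovirus receptor, a relative of the JAM proteins that also sits at tight junctions. Its counts were 468 and 100 in control and mutant, or 20.2 and 5.75 CPM, and it was called lower by 3.52-fold (2.83 to 4.41). The intervals of the levels did not overlap (18.4 to 22.15 and 4.68 to 6.995 CPM). Exons of Btg3 on the opposite strand cover 9.39% of its exon bases. Btg3 itself had 941 and 1091 counts, and the part of shared reads was not tested.

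Ocln, which encodes occludin, the first integral membrane protein described at tight junctions, had 0 counts in both libraries. A count of 0 allows up to 3 counts, or 0.130 CPM for the control and 0.173 CPM for the mutant. Marveld1, a member of the same MARVEL protein family, had 2465 and 1937 counts, or 106.6 and 111.4 CPM. These levels differed by 1.05-fold (0.984 to 1.11), and the ratio fell on the other side of 1 with plain totals (0.974). Marveld1 was thus well detected in both libraries and Ocln in neither. Of other genes of that family, Marveld2 was at 0 in both and Marveld3 had 4 and 8 counts.

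Of the cytoplasmic plaque members, Tjp1 encodes ZO-1, the scaffold that links claudins, occludin and JAM-A to actin. It had 2827 and 2231 counts, or 122.2 and 128.3 CPM, a 1.05-fold difference (0.993 to 1.11) that changed direction with plain totals (0.978). Cgnl1 encodes paracingulin, which binds ZO-1 and regulators of small GTPases. It had 2220 and 2292 counts, or 95.98 and 131.8 CPM, and was 1.37-fold higher in the mutant library (1.295 to 1.46) without being called. Cgn encodes cingulin, its closest relative, and had 2 and 18 counts, or 0.0865 and 1.035 CPM. It was called higher by 11.97-fold, with a wide interval of 2.87 to 106. Cgn sat exactly at the minimum of 20 counts over both libraries, and 18 of these came from the mutant library. Of its 50-base stretches, 20.1% also occur in BC021767, which had 2 and 3 counts. Cgnl1 made up 99.9% of the cingulin pair per length in the control and 98.95% in the mutant, so Cgn stayed a minor part of it in both libraries.

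**Figure D1:**
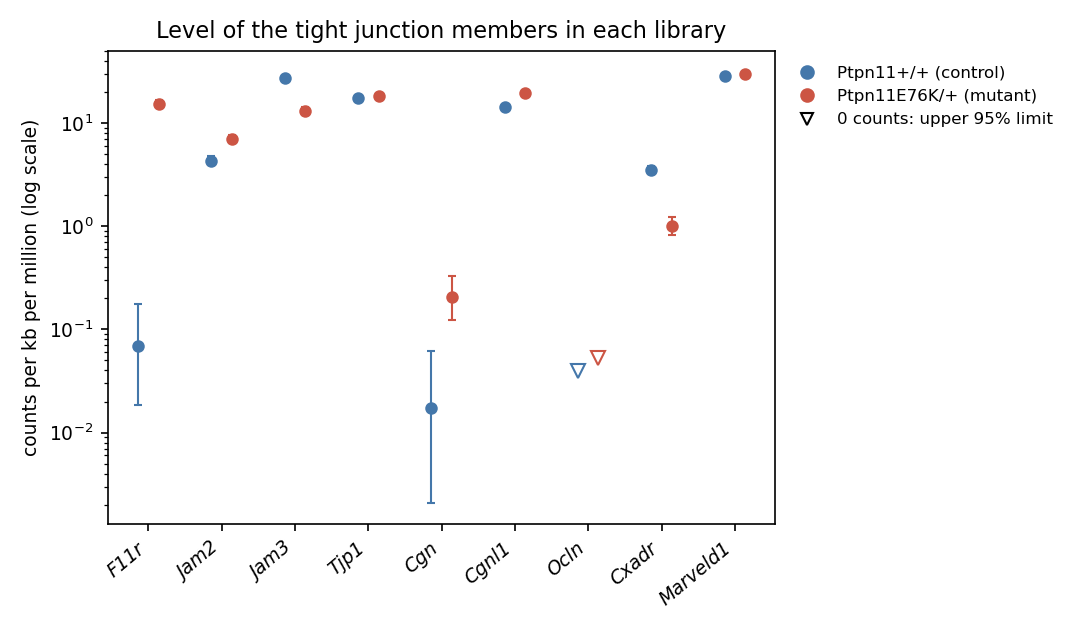
Level of each tight junction gene in the control (blue) and mutant (red) library, in CPM per kilobase of the longest transcript on a log axis; points are single libraries, bars 95% Poisson intervals, and open triangles the upper limit at 0 counts. F11r moved from 0.0687 to 15.4, Cxadr from 3.52 to 1.002, and Ocln was at 0 in both.

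By level per kilobase of the longest transcript, Marveld1 came first among the members in both libraries, at 28.4 and 29.7. With the median transcript length Tjp1 came first in both, at 174.9 and 183.6, against 31.25 and 32.7 for Marveld1. In the control library Jam3 came next at 27.2 (25.7 to 28.8), and its interval overlapped that of Marveld1 (27.3 to 29.5). Tjp1 (17.3), Cgnl1 (14.2), Jam2 (4.31) and Cxadr (3.52) followed, with intervals that did not overlap. F11r (0.0687) and Cgn (0.0172) came last among those detected, and their intervals did overlap. In the mutant library Cgnl1 (19.5) and Tjp1 (18.2) came after Marveld1, with overlapping intervals of 18.7 to 20.3 and 17.45 to 18.97. F11r took place 4 at 15.4 (14.3 to 16.6), which overlapped Jam3 at 13.0 (11.8 to 14.3) only at the bounds. Jam2 (7.02), Cxadr (1.002) and Cgn (0.206) came after them. F11r thus took place 7 of the 9 members in the control and place 4 in the mutant, or place 2 there with the median transcript length.

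In all, 8 of the 9 members had at least 20 counts, and of these 2 were called higher, 1 lower and 5 were not called. Over all 13142 measured genes, 6.98% were called higher and 8.29% lower, 15.3% in total. As F11r was the reason for the choice, nothing is read from the members' share. The median log2 ratio (prior count of 0.5) was 0.26 for the 8 members and 0.00 for all measured genes. Calls over all genes were 45.7% higher ones, and 35.6% when totals left out the 100 most abundant genes, which shifted all log2 ratios by -0.13. Under plain totals the shift was -0.10. Ptpn11 had 5958 and 5039 counts, a 1.12-fold difference (1.08 to 1.17), and a count per gene does not separate the alleles.

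**Figure D2:**
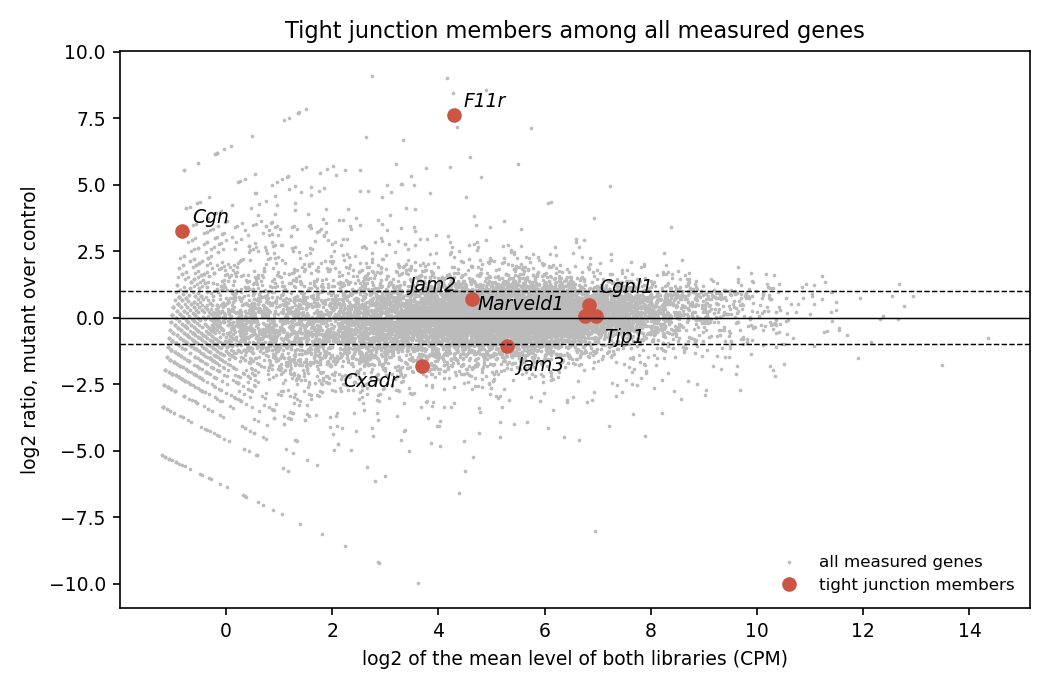
Log2 ratio of mutant over control (vertical axis) against the log2 mean level in CPM (horizontal axis) for the 13142 measured genes (grey) and the 8 measured tight junction members (red), with dashed lines at 2-fold. F11r lies at 7.62, above nearly all genes of its level, and Cgn at 3.25 among the least abundant genes, while Marveld1 (0.06), Tjp1 (0.07) and Cgnl1 (0.46) lie inside the 2-fold lines.

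The rest of the pathway was followed through a wider list of 70 junction genes, of which 69 were found in the table, 17 had 0 counts in both libraries and 37 were measured. Of the 37, 4 were called higher and 9 lower, which is 35.1% against 15.3% of all measured genes. The median log2 ratio was -0.17 against 0.00. The list was chosen with earlier results of these data known, and some called genes passed the minimum through 1 library alone. Nothing is therefore read from its share. Calls in both directions occurred among the plaque and polarity genes, while each of the other classes had calls in 1 direction.

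Claudins form the strands that set which ions and solutes pass the junction. Of 24 listed, 23 were found, 10 had 0 counts in both libraries, and 5 were measured. Of these, 3 were called lower and 0 higher, beside 8.29% and 6.98% of all measured genes. Cldn1, the main barrier claudin of the epidermis, had 731 and 19 counts, a level 28.9-fold lower in the mutant (18.4 to 48.3). Cldn19 had 57 and 1 counts, 42.85-fold lower with an interval of 7.39 to 1722. Cldn2, a claudin that forms cation pores, had 20 and 0 counts. Its level was 5.01-fold lower with the mutant library set to 3 counts, and the exact lower bound was 3.71. Cldn12 (565 and 575 counts) and Cldn15 (178 and 90) were not called. Cldn2 and Cldn19 passed the minimum through the control library alone, so the split of the calls and the median depend on that minimum. The median log2 ratio of the measured claudins was -4.82, or -2.33 with the zero of Cldn2 at 3 counts. It was -0.91 over every claudin with any count. With a minimum of 100 counts it was -0.57, and 1 claudin was called lower. One claudin went the other way below the minimum: Cldn3 had 1 and 18 counts, a ratio of 23.9 (3.78 to 998). Per kilobase, Cldn1 made up 38.1% of the claudin level in the control (35.8 to 40.5) and 1.98% in the mutant (1.19 to 3.08), while Cldn12 went from 32.55% to 66.1%.

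Among the other junction membrane proteins, Ildr2, a relative of the proteins that seal corners where cells meet, had 12 and 466 counts and was called 51.65-fold higher (29.3 to 100.7). Its level reached 3.25 per kilobase, below the 15.4 of F11r. Lsr (19 and 8 counts), a receptor at those corners, and Bves (64 and 22), which binds ZO-1, were not called, and Marveld2, which encodes tricellulin, was at 0 in both. Of 8 JAM and CAR relatives only Clmp, a CAR-like adhesion protein, was measured. Its 1401 and 432 counts put it 2.44-fold lower (2.19 to 2.72), on the same side as Cxadr. Esam, the relative found in endothelium, had 5 and 0 counts, and 4 of the 8 were at 0 in both.

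Plaque and polarity genes were all detected, and 18 of 19 were measured, with 2 called higher and 5 lower (median log2 ratio -0.19). That is 38.9% called, beside 15.3% of all measured genes. Tjp3, for ZO-3, a relative of ZO-1, had 0 and 5 counts.

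The PAR6 adaptors, which bind atypical protein kinase C in the polarity complex that JAM-A recruits, also differed in make-up. Pard6b had 6 and 59 counts and was 13.1-fold higher (5.67 to 37.1). It passed the minimum through the mutant library and was not called with a minimum of 100 counts. Pard6g, with 658 and 136 counts, was 3.64-fold lower (3.02 to 4.41). Pard6a, with 151 and 104 counts, was not called. Their partners Pard3 (961 and 677 counts, 1.07-fold lower) and Prkci, the kinase gene (3449 and 2772 counts, 1.07-fold higher), were not called.

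Lower calls among the scaffolds went to Amot (6055 and 828 counts, 5.50-fold, 5.11 to 5.92), whose product angiomotin binds Patj and polarity proteins, and to Magi3 (3471 and 929 counts, 2.81-fold, 2.61 to 3.02). Patj, a scaffold with many PDZ domains, was 2.63-fold lower (423 and 121 counts) and Magi2 2.70-fold lower (223 and 62 counts), but neither was called once the trends with length and GC were taken out. The related scaffolds Mpdz and Magi1, and the most abundant gene of the list, Amotl2 (24661 and 11174 counts, 1.66-fold lower), were not called.

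Among 10 signalling partners of JAM and ZO proteins, 1 was called higher and 0 lower (median log2 ratio 0.15). That is 10% called, beside 15.3% of all measured genes. Ybx3 encodes ZONAB, the transcription factor that ZO-1 holds at the junction. It had 4570 and 11126 counts and was 3.24-fold higher (3.13 to 3.35). Afdn, which encodes the JAM-A partner afadin, had 3251 and 2906 counts and was not called. The same held for the small GTPase genes Rap1a and Rap1b, which act after JAM-A, and for Arhgef2, whose exchange factor cingulin binds.

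**Figure D3:**
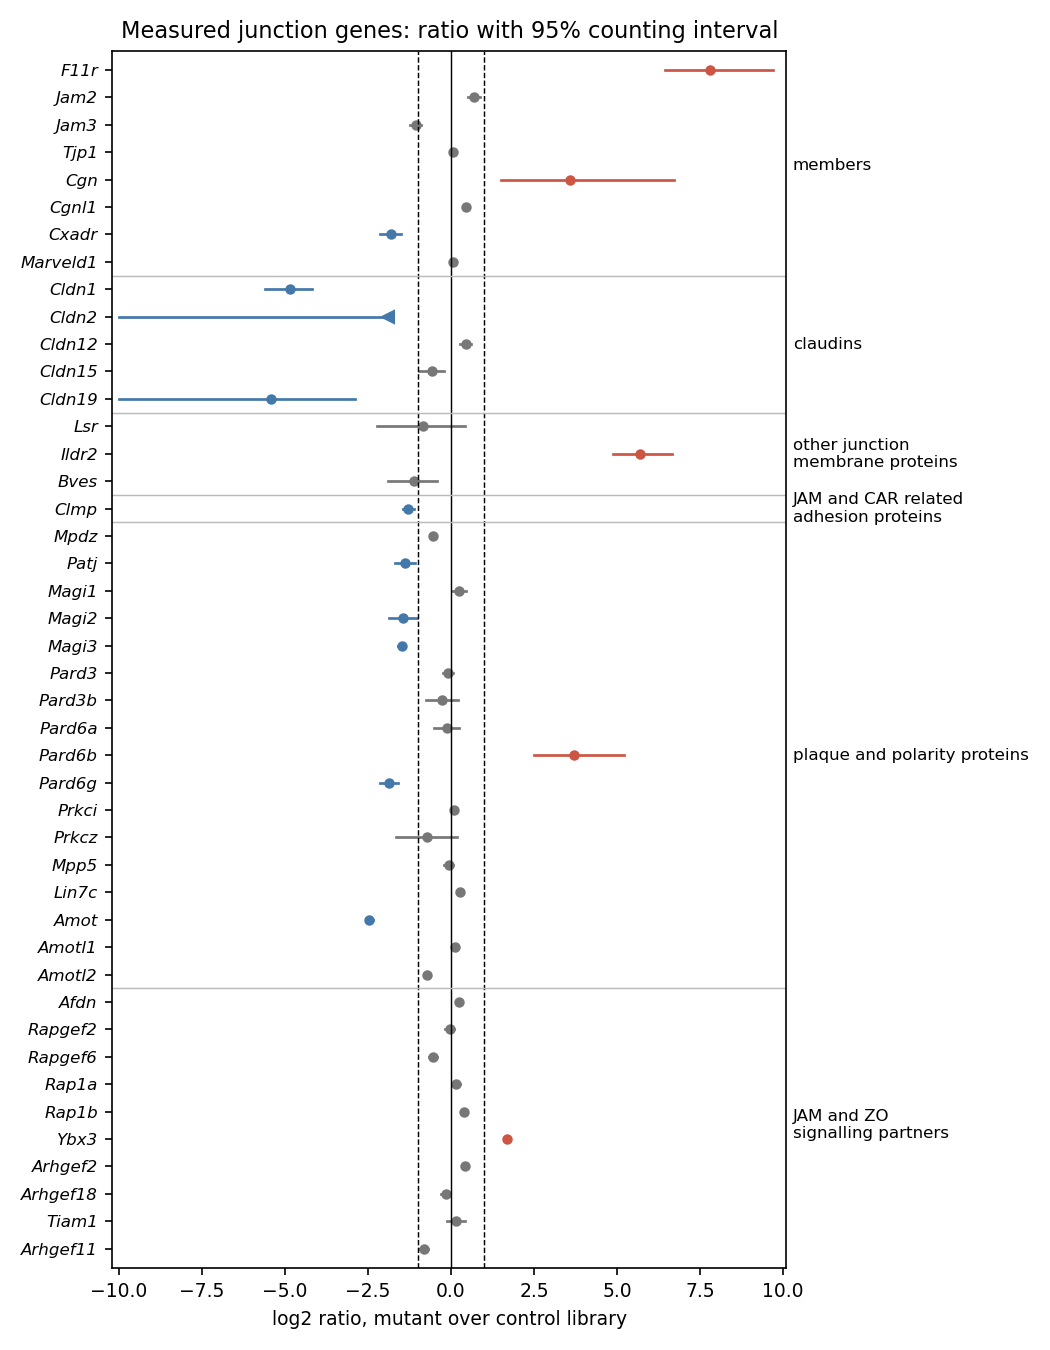
Log2 ratio of mutant over control with its 95% counting interval for the 8 measured members and the other junction genes with at least 20 counts, by class, 1 of them not shown; red marks genes called higher, blue genes called lower and grey the rest, dashed lines mark 2-fold, the arrowhead is the bound of a gene at 0 in the mutant, and intervals end at the left edge of the axis. F11r and Ildr2 lie farthest to the right and Cldn1 and Cldn19 farthest to the left.

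**Figure D4:**
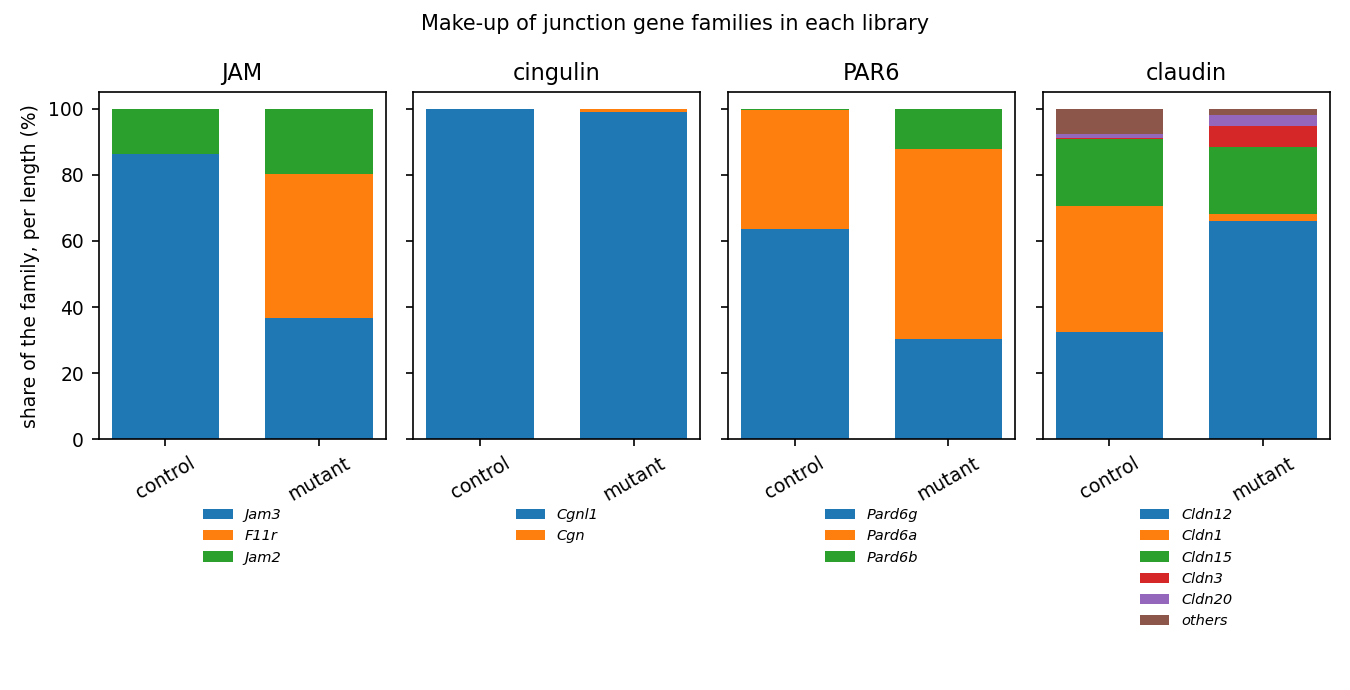
Share of each gene in the summed level per kilobase of its family (vertical axis, percent) in the control and mutant library, for the JAM, cingulin, PAR6 and claudin genes. F11r takes 43.5% of the JAM level in the mutant against 0.217% in the control, and Cldn1 takes 1.98% of the claudin level in the mutant against 38.1%.

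Genes whose products bind JAM proteins on other cells were set beside the members. The integrin LFA-1 binds JAM-A, Mac-1 binds JAM-C and VLA-4 binds JAM-B. Of 7 integrin genes 5 were measured and 2 called higher, beside 6.98% of all measured genes. Both passed the minimum through the mutant library alone, and with a minimum of 100 counts 0 were called. Itgb2, the shared beta chain of LFA-1 and Mac-1, had 0 and 49 counts, and Itgam had 0 and 30. With the control set to 3 counts these were 21.7-fold and 13.3-fold higher, with exact lower bounds of 17.0 and 10.2. Itgam shares 68.7% of its exon bases with the gene model Gm49368 on the same strand, and the part of shared reads was not tested. Itgal, the alpha chain of LFA-1, had only 3 and 1 counts. Itgb1 (45137 and 37341 counts), Itgav and Itgb3 were not called.

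Adherens junction genes, which hold mesenchymal cells together, had 10 of 13 measured, 1 called higher and 1 lower. That is 20% called, beside 15.3% of all measured genes. Nectin2, for a nectin that afadin anchors, was 3.22-fold higher (215 and 520 counts, 2.74 to 3.79). Cdh11, the cadherin of mesenchymal cells, was 2.70-fold lower (16792 and 4670 counts, 2.62 to 2.79). Cdh2 (8916 and 4542 counts), Ctnna1 and Ctnnb1 were not called, and Cdh1, for E-cadherin, had 0 and 1 counts.

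The 6 genes for repressors of epithelial junction genes were all measured and none was called in either direction (0 higher, 0 lower, median log2 ratio -0.35). Over all measured genes 15.3% were called. Snai1 had 3707 and 1838 counts, 1.52-fold lower in the mutant (1.43 to 1.60), and Snai2 1847 and 819, 1.695-fold lower (1.56 to 1.84). Twist1 was 1.38-fold, Zeb1 1.17-fold and Zeb2 1.17-fold lower, while Twist2 was 1.56-fold higher. The part of these genes in the level of F11r was not tested.

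Markers of other cell types differed between the libraries to unlike degrees. In bulk RNA fewer cells of a type and less RNA per cell cannot be told apart. Of 22 epithelial markers 7 were at 0 in both libraries, among them Epcam, Krt8, Krt18, Grhl2 and Esrp1. The summed epithelial level was 29.1 and 12.8 CPM in control and mutant. Of the 4 measured markers 1 was called lower and 0 higher, beside 8.29% and 6.98% of all measured genes. Krt19 (61 and 115), Grhl1 (47 and 47) and Krt7 (49 and 26) were not called. The part of epithelial RNA in the F11r level was not tested. Of 12 platelet and megakaryocyte markers 7 were at 0 in both, among them Gp9, Gp6 and Clec1b. Their sum went from 24.2 to 59.5 CPM, with Ppbp (168 and 802 counts) 6.35-fold higher, Gp1ba (57 and 5) 8.57-fold lower and Itga2b (150 and 122) not called. Their part in the F11r level was not tested. Gp1bb (185 and 104 counts) shares 91.1% of its exon bases with Sept5, so its reads may belong there.

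Leukocyte markers were higher in the mutant library, where F11r was. Of 14 markers 7 were measured, 6 of these were called higher and 0 lower, beside 6.98% and 8.29% of all measured genes. All 6 passed the minimum through the mutant library, and with a minimum of 100 counts 1 was called higher. The 14 summed to 0.951 and 31.2 CPM in control and mutant, with Lyz2 (11 and 276 counts) the largest, and Ptprc, for CD45, at 1 and 12 counts. F11r was at 38.8 CPM in the mutant library. The sum of chosen markers does not measure the amount of leukocyte RNA. Whether leukocyte RNA contributes to the F11r, Itgb2 and Itgam counts was not tested. The 10 endothelial markers summed to 1.08 and 2.53 CPM, with Cldn5 and Tie1 at 0 in both, and the 8 erythroid markers to 0.692 and 0.345 CPM.

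Of 11 sort and stromal genes 10 were measured, with 2 called higher and 2 lower, which is 40% beside 15.3% of all measured genes. With totals that left out the 100 most abundant genes, or with the trends taken out, 1 was called higher. Pdgfra, a gene of the CD140 family, had 2073 and 1792 counts and Pdgfrb 6075 and 3721, and neither was called. Lepr, the leptin receptor gene of marrow stroma, had 7 and 4 counts. Ly6a, which encodes Sca-1, had 2177 and 612 counts (2.67-fold lower), and Cxcl12, a chemokine gene of marrow stroma, 9749 and 2162 (3.39-fold lower). Nes, for nestin, had 5192 and 10785 counts (2.76-fold higher) and Thy1 206 and 398 (2.57-fold higher). Total counts were 22328659 and 18010963 for control and mutant, over 17887 and 17185 detected genes.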

How the data were processed

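The authors deposited raw read counts per Ensembl gene, whole numbers with no normalization, for 1 library per genotype. Per the submitters' processing notes, CASAVA, TopHat, edgeR and mm9 were used. Which counter, annotation and strand option the authors used is not stated in the labels, and the design text speaks of 2 replicates. Symbols were found for 34490 of 35275 identifiers in the supplied name table, and lengths come from GENCODE M21 on another build.

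TMM factors (1.036 for the control, 0.965 for the mutant) came from edgeR 4.0.16 in R 4.3.3. Intervals are exact at 95% (SciPy 1.17.1) and cover counting error only. No test between genotypes was run, since each had 1 library. The procedure was tested on simulated data with counting error only. Variation between animals or library preparations was not simulated. The members and lists were chosen with earlier results of these data known. Named genes are the members, called and most abundant list genes, the genes ranked beside F11r and its chromosomal neighbours, with Ptpn11. Some genes of the lists are counted in them but not reported here by name. Other list genes given with counts were chosen after their values were seen. Alternatives were plain totals, DESeq2 1.42.0 size factors, upper-quartile factors, totals without the 100 most abundant genes, other minimums, thresholds and prior counts and, chosen after seeing the data, zeros at 3 counts and lowess trends over length and GC content (statsmodels 0.14.6).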

Additional observations from a re-analysis of the deposited data

How the results depend on the processing

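F11r and Cgn were called higher and Cxadr lower under each scaling tried, without a minimum count and with 99% intervals, and the F11r ratio with trends over length and GC content removed was 209. With a minimum of 100 counts 1 member was called higher, since Cgn left the measured genes. Beyond 4-fold 1 member was called higher and 0 lower, with 2 higher and 3 lower among the wider junction genes and 223 and 265 among all genes. With plain totals, totals without the 100 most abundant genes, the 1.5-fold threshold, the ratio alone or the trends removed, 2 members were called lower, the second being Jam3. Over all genes, the 1.5-fold threshold gave 2063 higher and 2046 lower, and the ratio alone 1435 and 1922. F11r took place 2 among the members of the mutant library with the median transcript length. Without a minimum 1 claudin was called higher, and with a minimum of 100 counts 1 was called lower. With 1 library per genotype none could be left out. Depth limits genes with few counts in a library, such as Cgn, Cldn2, Cldn3 and Cldn19, which have wide intervals.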

Other observations

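Ranked by the lower bound of the ratio's interval, F11r took rank 5 of the 13142 measured genes. The genes just above it were 3300005D01Rik, with 2 and 670 counts in control and mutant, and Serpinb2, a serpin gene, with 17 and 1839. Just below were the chemokine gene Ccl3, with 0 and 233 counts, and Tmem171, a membrane protein gene, with 6 and 708. At 38.8 CPM in the mutant library, F11r lay close to 3300005D01Rik (38.5) and Tmem171 (40.7), below Serpinb2 (105.8) and above Ccl3 (13.4).

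Of the genes next to F11r on chromosome 1, Usf1 and Alyref2 had at least 20 counts and neither was called. For Usf1, a transcription factor gene, 749 and 517 counts gave a ratio of 0.918 (0.819 to 1.03). The noncoding gene Gm26641, which lies just before F11r, had 0 and 2 counts. On the other side the 23 and 12 counts of Alyref2 gave 0.694 (0.315 to 1.45), and Itln1 had 0 and 1. Tstd1 and a small nuclear RNA gene among the 3 neighbours on each side were not matched to a row and are not analysed here.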
